A study of Mus musculus with 61 samples.

Results

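Somatostatin (Sst) and 3 other genes used to define pancreatic delta cells, Hhex, Rbp4 and Ghsr, were followed through 12 conditions of transcription factor expression in mouse pancreatic ductal organoid cells. They are 4 of the 46078 genes in the deposited count table, chosen by name and not by their values in these libraries, and all 4 passed the filter on detection that left 24004 genes for testing. The question was whether Hhex, Rbp4 and Ghsr, as genes of delta-cell identity, followed the hormone gene.

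Delta cells are the islet cells that release somatostatin, a short peptide hormone that acts on neighbouring alpha and beta cells to restrain the release of glucagon and insulin. Hhex encodes a homeobox transcription factor that mature delta cells need to keep their identity, and which is also used earlier, in foregut, liver and duct progenitors. Rbp4 encodes the carrier of retinol in plasma, made mainly by hepatocytes and also strongly expressed in mouse delta cells, and Ghsr encodes the receptor for ghrelin, which in the islet is found mainly on delta cells. Ngn3 (Neurog3) is the basic helix-loop-helix factor that starts endocrine differentiation in the embryonic pancreas, while Pdx1 and MafA are factors of beta cells and, in the case of Pdx1, also of delta cells.

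RNA was sequenced from pools of 50 cells sorted by flow cytometry from cultures of C57BL/6 ductal organoids after 8 days of doxycycline. All cultures had received lentiviral vectors with a doxycycline-inducible promoter that express Ngn3 with GFP, Pdx1 with LSSmOrange and MafA with tdTomato, together with a transactivator, and the sort selected cells by these 3 colours. The 6 colour combinations were Pdx1, MafA, Pdx1-MafA, Ngn3-Pdx1, Ngn3-MafA and Ngn3-Pdx1-MafA. Each was taken from cultures given wild-type Ngn3 (WT) and from cultures given 6SA Ngn3, in which serines that can be phosphorylated are replaced by alanine. Cells without Ngn3 therefore came from cultures that had also been given an Ngn3 vector and that shared the transactivator and the doxycycline. Replicates 1 and 2 were organoids at passage 2 and replicate 3 at passage 5, and 1 to 3 pools of a replicate were summed. Uninfected cells and cells with Ngn3 alone were not analysed here. A colour shows that a vector was active in the sorted cells, not how much of each factor each of the 50 cells made, and in such pools fewer cells of a type and less RNA per cell cannot be told apart.

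After libraries with under 1000000 gene counts were left out, 58 of 61 libraries and 32 samples remained, 17 with Ngn3 and 15 without, with 2579583 to 19461008 gene counts per sample. Levels are in CPM, the count as a share of the sample's TMM-scaled total, multiplied by 1e6. The level that 3 counts give was 0.136 to 1.012 CPM across samples, which covers counting error only. Neurog3 separated the samples as labelled, with 7.87 to 329 CPM in the 17 samples with Ngn3 and 0 to 0.787 CPM in the others. Pdx1 did so less clearly, at 9.84 to 191 CPM in the samples with Ngn3 and the Pdx1 vector against 3.21 to 30.6 CPM in those with Ngn3 and MafA. Mafa was at 0 counts in the sample labelled 6SA Pdx1-MafA replicate 3, while the other samples with the MafA vector had 1 to 146 counts. WT MafA replicate 1 and WT Pdx1-MafA replicate 2 had 1 count each. So did WT Pdx1 replicate 1 and 6SA Ngn3-Pdx1 replicate 2, which lack that vector, so Mafa did not separate every sample as labelled. In these counts a vector's transcripts and those of the cell's own gene cannot be told apart.

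The promoters of Sst, Rbp4 and Hhex are shown so that genes that rose with Ngn3 and one that did not can be set side by side. The sequences are from RefSeq for GRCm38.p6, 5′ to 3′ on the strand of the gene, in lower case with motif matches in capitals. The Sst window just upstream of its gene model is chr16:23890959-23891094 on the minus strand, where the capitals mark an E-box (CANNTG, the hexamer that basic helix-loop-helix factors such as Ngn3 bind) at position -199 from the RefSeq start.
Sst upstream: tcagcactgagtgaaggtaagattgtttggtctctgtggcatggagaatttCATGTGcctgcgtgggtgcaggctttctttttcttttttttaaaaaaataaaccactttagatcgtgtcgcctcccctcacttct
The second Sst window is chr16:23890874-23890903 on the minus strand, where the capitals mark the cyclic AMP response element (CRE, TGACGTCA) at position -48, the element for which this gene is a textbook example.
Sst CRE window: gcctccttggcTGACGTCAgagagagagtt
The Rbp4 window is chr19:38125322-38125571 on the minus strand, with an E-box at position -236 and the core of homeodomain sites (TAAT, here on the opposite strand) at position -227 in capitals.
Rbp4 upstream: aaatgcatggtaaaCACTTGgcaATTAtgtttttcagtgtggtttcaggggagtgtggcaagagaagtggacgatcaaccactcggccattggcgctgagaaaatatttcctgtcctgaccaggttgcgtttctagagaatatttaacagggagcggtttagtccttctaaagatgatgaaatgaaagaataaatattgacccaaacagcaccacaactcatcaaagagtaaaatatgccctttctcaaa
The Hhex window is chr19:37434591-37434809 on the plus strand, and none of the 3 motifs was found in it.
Hhex upstream: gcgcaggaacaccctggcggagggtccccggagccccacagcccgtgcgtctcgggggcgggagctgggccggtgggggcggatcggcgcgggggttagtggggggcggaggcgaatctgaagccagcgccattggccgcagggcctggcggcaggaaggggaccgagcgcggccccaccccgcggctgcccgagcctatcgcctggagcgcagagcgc
On either strand, the CRE was present in 1.55% of 32851 RefSeq promoters of the same length, the E-box in 66.2% and TAAT in 54.9%, so matches of the E-box and of TAAT are common. The Sst promoter also held TAAT, at position -95 and outside both windows shown. A second RefSeq start of Rbp4 had none of the 3 motifs, and the promoter of Ghsr, which was barely detected, held an E-box at -95 and TAAT at -106. A match is a description of these letters and not a binding site.

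Sst (ENSMUSG00000004366, chromosome 16, 23889573 to 23890958 on the minus strand, with 721 bases of exon) was present at low levels in every sample without Ngn3 and was abundant in most samples with Ngn3. It was at 0.791 to 31.6 CPM (median 3.63) in the 15 samples without Ngn3 and at 4.54 to 30703 CPM (median 5787) in the 17 with it. The highest condition mean came with all 3 factors in WT cells. With these factors Sst was at 30703, 13330 and 6951 CPM in WT replicates 1, 2 and 3 and at 18482 and 1605 CPM in 6SA replicates 1 and 2. All 5 of these samples were above every sample without Ngn3.

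With Ngn3 and Pdx1, Sst was at 13795, 6262 and 19.02 CPM in WT replicates 1 to 3 and at 5870, 5787 and 6441 CPM in 6SA replicates 1 to 3. With Ngn3 and MafA it was at 1351, 6.13 and 4.54 CPM in WT cells and at 650, 3718 and 6.42 CPM in 6SA cells. Thus 13 of the 17 samples with Ngn3 were above all 15 samples without it, and 4 were not: WT Ngn3-Pdx1 replicate 3, WT Ngn3-MafA replicates 2 and 3, and 6SA Ngn3-MafA replicate 3. These 4 samples held 7.87, 212, 32.7 and 24.9 CPM of Neurog3, against 14.6 to 329 CPM in the 13 others, so 3 of the 4 lay within that range. The same count, 3 of the 4, were at passage 5. Among samples with Ngn3 at passage 5, the remaining ones, 6SA Ngn3-Pdx1 and WT Ngn3-Pdx1-MafA, were at 6441 and 6951 CPM. The part of passage in the low samples was not tested.

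Without Ngn3, Sst was at 13.6 and 3.63 CPM in WT Pdx1, 5.38 and 1.80 CPM in 6SA Pdx1, 7.18 and 2.16 CPM in WT MafA, and 4.15, 1.46 and 0.791 CPM in 6SA MafA. In Pdx1-MafA cells it was at 12.02, 2.61 and 1.08 CPM in WT and at 5.36, 2.17 and 31.6 CPM in 6SA cultures. The highest of these, 221 counts in 6SA Pdx1-MafA replicate 3, was the sample in which Mafa had no counts. All 15 had at least 3 counts, and the 6 conditions overlapped one another.

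**Figure D1:**
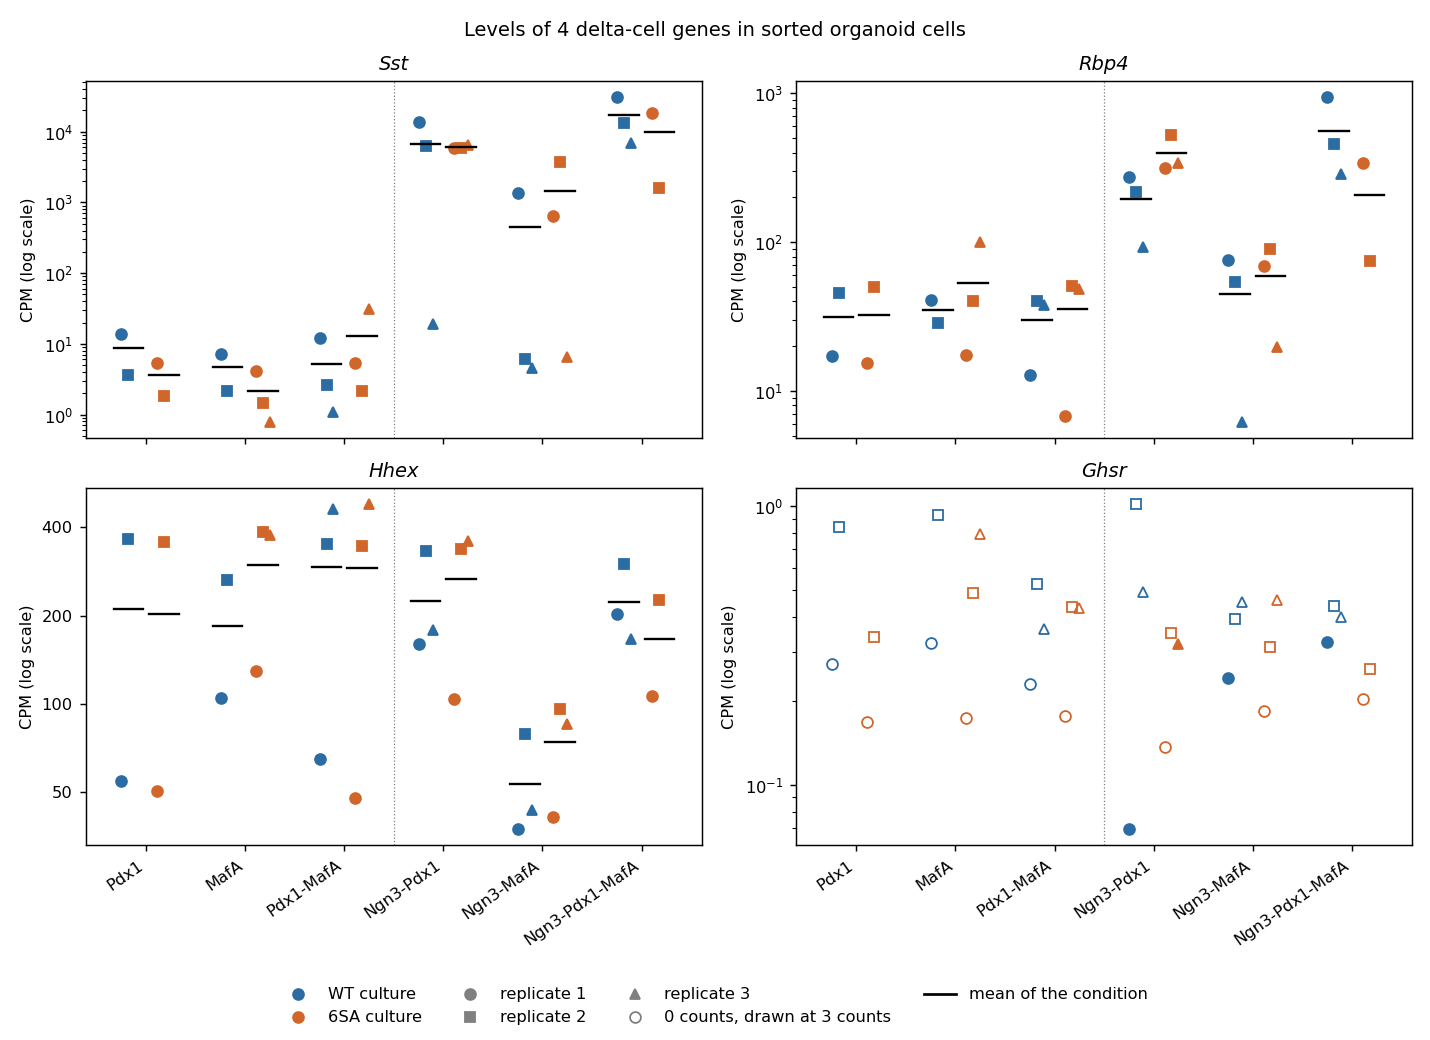
Levels of Sst, Rbp4, Hhex and Ghsr in CPM (log scale) in 32 samples of 12 conditions, with WT cultures in blue, 6SA cultures in orange, replicates by symbol and the mean of each condition as a bar. Open symbols for Ghsr are samples with 0 counts, drawn at the level of 3 counts. Sst reached 30703 CPM with Ngn3-Pdx1-MafA in a WT sample and stayed at or under 31.6 CPM in each sample without Ngn3, while Hhex was at 37.4 to 95.9 CPM in all 6 samples of Ngn3-MafA.

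Ngn3 was compared with no Ngn3 in the mean over 6 pairs of conditions that had the same other factors and the same culture. Sst rose by 9.55 ± 1.11 on the log2 scale (± standard error here and below, edgeR quasi-likelihood test, adjusted p = 2.64e-07). Of all tested genes, 21.5% were called in this comparison at an adjusted p under 0.05, 11.1% as higher and 10.5% as lower. It was higher in 14 of 14 pairs of samples with the same culture, number and other factors. The rise passed with each partner. It was 10.12 ± 2.01 with Pdx1 (edgeR adjusted p = 0.00483, 1.49% of genes called), 7.91 ± 1.79 with MafA (adjusted p = 0.00683, 4.67% called) and 10.61 ± 1.7 with both (adjusted p = 6.9e-05, 17.8% called). Without the sample in which Mafa had no counts, the mean rise was 9.88 (edgeR adjusted p = 2.73e-07). These comparisons share samples with one another.

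Taken in single cultures, with 2 or 3 samples a side, the rise of Sst with Ngn3 passed in 3 of 6 pairs of conditions. It passed in Ngn3-Pdx1-MafA against Pdx1-MafA in WT (11.63, edgeR adjusted p = 0.00523, 4.86% of genes called) and in 6SA cultures (9.60, adjusted p = 0.0125, 5.79% called), and in 6SA Ngn3-MafA against MafA (9.28, adjusted p = 0.0311, 1.57% called). It did not pass in WT Ngn3-Pdx1 (9.56, edgeR adjusted p = 0.378, 0.108% called), in WT Ngn3-MafA (6.54, adjusted p = 0.35, 0.662% called) or in 6SA Ngn3-Pdx1 (10.69, adjusted p = 0.146, 0.367% called). The last of these passed with the replicate number as a block (12.04, edgeR adjusted p = 0.0125). With DESeq2 Sst passed in all 3, at adjusted p = 1.66e-05, 0.00814 and 3.32e-07 in this order, as it did with edgeR without the gene filter. With passage 2 samples only it passed in WT Ngn3-Pdx1 (adjusted p = 0.01) and 6SA Ngn3-Pdx1 cells (adjusted p = 0.00584).

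Rbp4 (ENSMUSG00000024990, chromosome 19, 38116629 to 38125281 on the minus strand, 1343 bases of exon) was detected in every sample and was higher with Ngn3 where Pdx1 was also present. It was at 943, 458 and 287 CPM in WT Ngn3-Pdx1-MafA, at 342 and 74.9 CPM in 6SA Ngn3-Pdx1-MafA, at 275, 218 and 92.7 CPM in WT Ngn3-Pdx1 and at 316, 527 and 342 CPM in 6SA Ngn3-Pdx1. With Ngn3-MafA it was at 75.3, 53.7 and 6.20 CPM in WT and at 69.3, 89.3 and 19.7 CPM in 6SA cells. The 15 samples without Ngn3 held 6.77 to 101 CPM (median 39.9), so all 6 Ngn3-MafA samples lay within or below that range, and 9 of the 17 samples with Ngn3 lay above it.

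Over the 6 pairs of conditions, Rbp4 rose by 2.27 ± 0.373 on the log2 scale (edgeR adjusted p = 4.3e-05) and was higher in 13 of 14 same-numbered pairs. Its rise passed the test with Pdx1 (3.12 ± 0.714, edgeR adjusted p = 0.0178) and with Pdx1 and MafA together (3.40 ± 0.625, adjusted p = 0.000346). With MafA as the only partner the difference was 0.28 ± 0.596 (edgeR adjusted p = 1). There, Rbp4 was higher in 4 of 5 same-numbered pairs. The difference ran from 0.19 to 1.23 over 10 alternatives, and Rbp4 passed in none of them. Within single cultures it passed in WT Ngn3-Pdx1-MafA (4.23, edgeR adjusted p = 0.00523) and in no other pair, with 2.57 (adjusted p = 0.0851) in the 6SA cells with the same 3 factors and 3.60 (adjusted p = 0.198) in 6SA Ngn3-Pdx1 cells. With DESeq2 these 2 pairs passed as well (adjusted p = 0.0247 and 0.00394), and without the gene filter edgeR called them and WT Ngn3-Pdx1 (adjusted p = 0.000226). The first also passed with all libraries (adjusted p = 0.0342) and without edgeR's legacy setting (0.0486), and the second with passage 2 samples only (0.0379). The difference between the effect of Ngn3 with Pdx1 and with MafA was 2.85 ± 0.888 on the log2 scale, with an unadjusted p of 0.00339 and an edgeR adjusted p of 1, so it did not pass. No gene passed that test with edgeR, where 820 genes had an unadjusted p under 0.05 and DESeq2 called 19 (0% called by edgeR). Without the gene filter edgeR called 126 genes, among them Rbp4 (2.86, adjusted p = 1.67e-05), Sst (2.21, adjusted p = 0.00305) and Hhex (2.16, adjusted p = 0.0042).

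Hhex (ENSMUSG00000024986, chromosome 19, 37434810 to 37440731 on the plus strand, 5056 bases of exon) was expressed in all 32 samples, with or without Ngn3, and did not move with Sst between these groups. It was at 47.7 to 479 CPM (median 346) without Ngn3 and at 37.4 to 358 CPM (median 160) with it, so none of the 17 samples with Ngn3 was above all of those without. Its mean change with Ngn3 was -0.75 ± 0.337 (edgeR adjusted p = 0.124), with 4 of 14 same-numbered pairs higher and 10 lower.

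The lowest mean Hhex levels were those of the 2 Ngn3-MafA conditions, at 37.4, 79.1 and 43.4 CPM in WT and at 41.2, 95.9 and 85.6 CPM in 6SA replicates 1 to 3. The same-numbered samples with MafA alone were at 104 and 265 CPM in WT replicates 1 and 2 and at 129, 387 and 378 CPM in 6SA, so Hhex was lower with Ngn3 in 5 of 5 such pairs. The difference was -1.90 ± 0.58 on the log2 scale (edgeR adjusted p = 0.0576), which missed the threshold. It passed with DESeq2 (adjusted p = 0.0168), without the gene filter (edgeR adjusted p = 6.53e-07) and without edgeR's legacy setting (adjusted p = 0.0459). With the replicate number as a block it was -1.89 ± 0.353 (edgeR adjusted p = 0.000538), and the count of genes called in this comparison went from 1121 to 2123. In 6SA cultures alone it was -2.01 (edgeR adjusted p = 0.283), or -1.93 with the block (adjusted p = 0.0174), and in WT cultures alone -1.79 (adjusted p = 0.582). Without the gene filter both passed, at -1.99 in 6SA (edgeR adjusted p = 0.000599) and -1.79 in WT cultures (adjusted p = 0.0107). With Pdx1 as partner Hhex was at 160, 332 and 179 CPM in WT and 104, 338 and 358 CPM in 6SA Ngn3-Pdx1 cells, against 54.7 and 365 CPM in WT and 50.4 and 355 CPM in 6SA Pdx1 cells. The groups overlapped, and the difference was 0.24 ± 0.609 (edgeR adjusted p = 1). With all 3 factors Hhex was at 202, 300 and 166 CPM in WT and 106 and 226 CPM in 6SA cells, against 64.9, 352 and 462 CPM and 47.7, 346 and 479 CPM in Pdx1-MafA cells (-0.60 ± 0.58, edgeR adjusted p = 0.535).

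Hhex differed between replicate numbers in cells without Ngn3. With Ngn3 the replicates overlapped, at 37.4 to 202, 79.1 to 338 and 43.4 to 358 CPM in replicates 1, 2 and 3. In cells without Ngn3, Hhex was at 47.7 to 129 CPM in the 6 samples of replicate 1 and at 265 to 387 CPM in the 6 of replicate 2. It was at 378 to 479 CPM in the 3 of replicate 3, and replicates 1 and 2 did not overlap. Of all tested genes, 11.5% had such a gap in either direction and 4.11% were, as Hhex was, higher in replicate 2. Sst had a gap in the opposite direction, at 4.15 to 13.6 CPM in replicate 1 and 1.46 to 3.63 CPM in replicate 2 (7.39% of genes were lower in that way), and Rbp4 overlapped at 6.77 to 41.1 and 28.7 to 50.6 CPM. Replicates 1 and 2 were both at passage 2, and what else the number stands for is not given in the labels.

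Ghsr (ENSMUSG00000051136, chromosome 3, 27371351 to 27378010 on the plus strand, 4433 bases of exon) was barely detected. It had 10 counts over all 32 samples, 4 in WT Ngn3-Pdx1-MafA replicate 1, 3 in WT Ngn3-MafA replicate 1, 2 in 6SA Ngn3-Pdx1 replicate 3 and 1 in WT Ngn3-Pdx1 replicate 1. The 15 samples without Ngn3 had 0 counts, which allows up to 0.0201 CPM over that group. No fold is given, because no sample had more than 4 counts. Ghrl, the gene of the hormone ghrelin that this receptor binds, was in contrast at 10.8 to 4933 CPM (median 1168) in the 17 samples with Ngn3 and at 0 to 2.24 CPM without.

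Per kilobase of exon, the mean level in samples with Ngn3 was 9381 CPM for Sst, 183 for Rbp4, 33.2 for Hhex and 0.0127 for Ghsr. Without Ngn3 the order was Hhex at 50.6, Rbp4 at 27.4, Sst at 8.78 and Ghsr at 0 CPM per kilobase. This order is that of the means, and single samples departed from it.

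Ordered by mean level, the 12 conditions formed no clear steps. For each of Sst, Rbp4 and Hhex, 10 of the 11 neighbouring pairs of conditions overlapped in their samples. The gap for Sst lay between 6SA Ngn3-Pdx1, at 6033 ± 356 CPM (SD, n = 3), and 6SA Ngn3-MafA, at 1458 ± 1983 CPM (SD, n = 3). For Rbp4 it lay between WT Ngn3-Pdx1, at 195 ± 93.1 CPM, and 6SA Ngn3-MafA, at 59.4 ± 35.8 CPM (SD, n = 3 each). For Hhex it lay between 6SA Ngn3-Pdx1-MafA, at 166 ± 85.1 CPM (SD, n = 2), and 6SA Ngn3-MafA, at 74.2 ± 29.1 CPM (SD, n = 3).

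**Figure D2:**
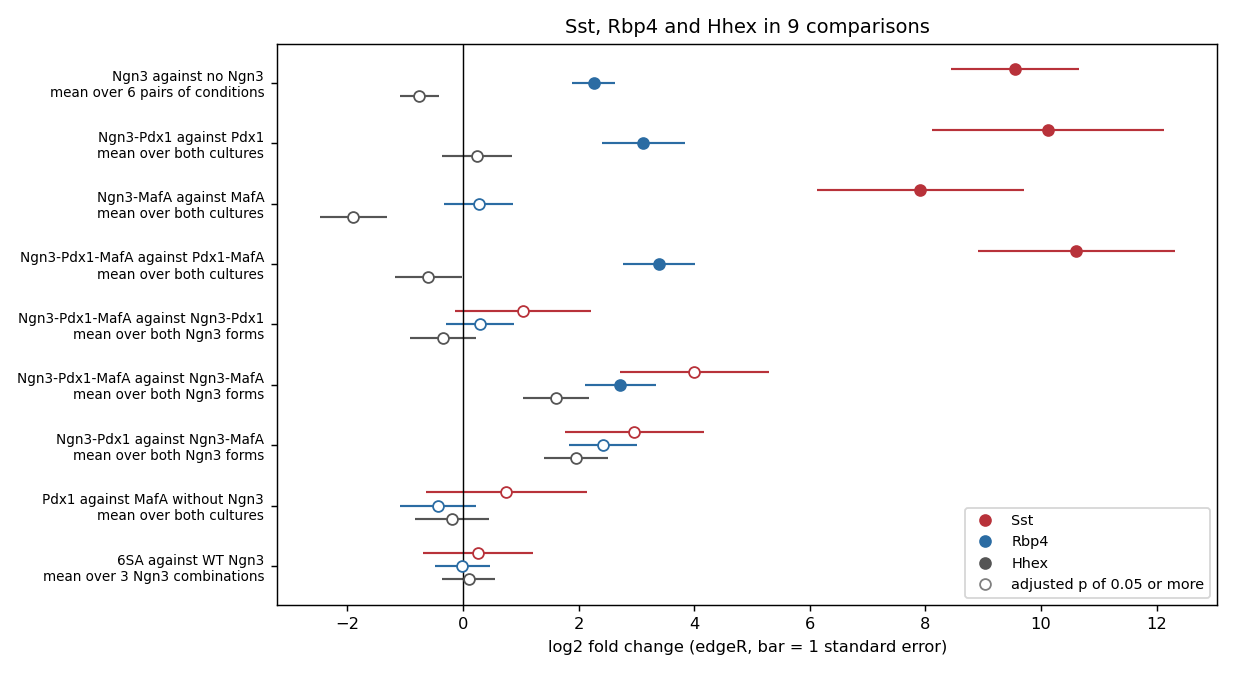
Log2 fold changes of Sst, Rbp4 and Hhex in 9 comparisons from the edgeR fit, with 1 standard error as a bar. Filled symbols have an adjusted p under 0.05. Sst passed in the 4 comparisons of Ngn3 with no Ngn3 (7.91 to 10.61), Rbp4 in 3 of these and in Ngn3-Pdx1-MafA against Ngn3-MafA (2.72), and Hhex in none.

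Pairs of Ngn3 combinations were compared over both forms of Ngn3. Of the 3 well detected genes, Rbp4 passed as higher in Ngn3-Pdx1-MafA than in Ngn3-MafA cells, by 2.72 ± 0.609 on the log2 scale (edgeR adjusted p = 0.0156, 2.72% of genes called). Sst differed by 4.01 ± 1.29 (edgeR adjusted p = 0.0845) and Hhex by 1.61 ± 0.576 (adjusted p = 0.121). With the replicate number as a block both passed, Sst at 3.96 (edgeR adjusted p = 0.0276) and Hhex at 1.78 (adjusted p = 0.0025), and the count of genes called went from 654 to 2038. The call for Rbp4 rested on single samples, since it was lost without 6SA Ngn3-Pdx1-MafA replicate 1 (1.99, edgeR adjusted p = 0.133), 6SA Ngn3-MafA replicate 3 (adjusted p = 0.0531) or WT Ngn3-Pdx1-MafA replicate 1 (adjusted p = 0.0525). Without WT Ngn3-MafA replicate 1, the only WT Ngn3-MafA sample with high Sst, the difference of Sst was 7.21 (edgeR adjusted p = 0.00963).

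Ngn3-Pdx1 against Ngn3-MafA gave differences of the same direction, 2.97 ± 1.2 for Sst (edgeR adjusted p = 0.453), 2.42 ± 0.586 for Rbp4 (adjusted p = 0.088) and 1.96 ± 0.561 for Hhex (adjusted p = 0.204), in a comparison with 0.133% of genes called. With the block, Hhex (1.91 ± 0.34, edgeR adjusted p = 0.00337) and Rbp4 (2.47 ± 0.57, adjusted p = 0.0297) passed, and genes called went from 32 to 216. Between Ngn3-Pdx1-MafA and Ngn3-Pdx1 cells, where 1.88% of genes were called, Sst differed by 1.04 ± 1.18 (edgeR adjusted p = 0.764), Rbp4 by 0.30 ± 0.587 (adjusted p = 0.923) and Hhex by -0.34 ± 0.577 (adjusted p = 0.892), and none of the 3 passed. In cells without Ngn3, Pdx1 against MafA gave 0.75 ± 1.39 for Sst, -0.43 ± 0.663 for Rbp4 and -0.18 ± 0.636 for Hhex, each with an edgeR adjusted p of 1. No gene was called there by edgeR, where 675 had an unadjusted p under 0.05, DESeq2 called 26, edgeR without the gene filter called 113 and edgeR with the replicate block called 1.

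The phospho-mutant form of Ngn3 was compared with the wild-type form over the 3 combinations with Ngn3. Sst differed by 0.26 ± 0.947 on the log2 scale, Rbp4 by -0.01 ± 0.475 and Hhex by 0.10 ± 0.46, each with an edgeR adjusted p of 1. The error was widest for Sst. No gene was called by edgeR, where 1422 had an unadjusted p under 0.05, DESeq2 called 26 and edgeR without the gene filter called 239. The spread among replicates was wide in both forms, as in Ngn3-MafA cells, where WT Sst ran from 4.54 to 1351 CPM and 6SA Sst from 6.42 to 3718 CPM. The difference in the effect of Ngn3 between the 2 kinds of culture was 0.62 ± 1.43 for Sst, -0.30 ± 0.698 for Rbp4 and -0.11 ± 0.676 for Hhex, each with an edgeR adjusted p of 1. In that test too no gene was called by edgeR, while 647 had an unadjusted p under 0.05, DESeq2 called 5 and edgeR without the gene filter called 101.

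Whether the identity genes followed Sst was described within the samples with Ngn3, over which Sst fell into 2 separate ranges, 4 samples at 4.54 to 19.02 CPM and 13 at 650 CPM or more. Within the 13 samples, log2(CPM + 1) of Rbp4 had a Pearson r of 0.88 and a Spearman rho of 0.74 with that of Sst, and r was 0.81 without the 2 samples farthest from the median of Sst. Hhex had an r of 0.54 and a rho of 0.35, and r was 0.36 without those 2 samples. Neurog3 had an r of 0.02. These are descriptions across samples that share cultures, numbers and factors, so no p is given.

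In the 4 samples with low Sst, Rbp4 was at 6.20 to 92.7 CPM, against 69.3 to 943 CPM in the 13 others, and Hhex was at 43.4 to 179 CPM against 37.4 to 358 CPM. Over all 17 samples, which join these ranges, r was 0.86 for Rbp4, 0.50 for Hhex and 0.32 for Neurog3. As deviations from the mean of each condition, Rbp4 still had an r of 0.76 with Sst and Hhex had -0.14. As deviations from the mean of the same culture and replicate number, Hhex had 0.78 and Rbp4 0.85. Over these 17 samples, Rbp4 thus went with Sst both between and within conditions. Hhex did so most closely when samples of the same culture and number were set against one another, a setting chosen after seeing the data. Both kinds of deviations also join the 2 ranges of Sst, and all genes were not ranked by them. In the 15 samples without Ngn3, where Sst was at 0.791 to 31.6 CPM, r was -0.41 for Rbp4 and -0.46 for Hhex, and -0.70 and -0.84 without the 2 samples farthest from the median of Sst.

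**Figure D3:**
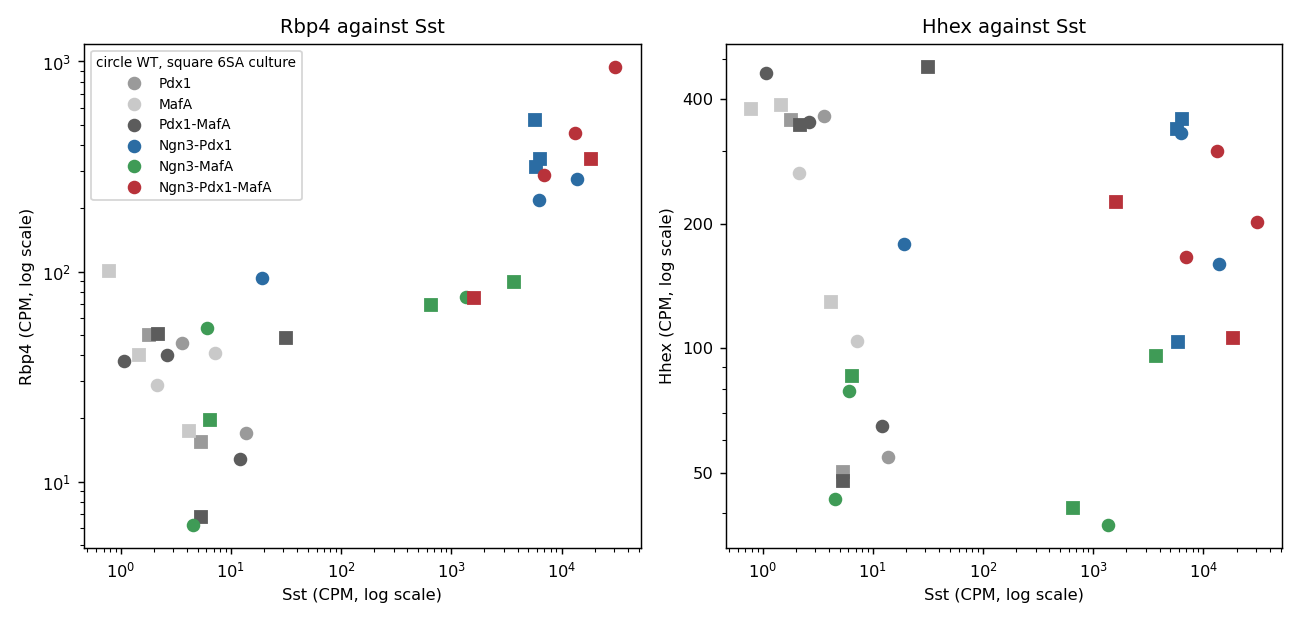
Rbp4 (left) and Hhex (right) against Sst in 32 samples, all in CPM on log scales, coloured by combination with circles for WT and squares for 6SA cultures. Rbp4 increased with Sst among the 13 samples with Ngn3 and high Sst (r of 0.88 on log2(CPM + 1)), of which 9 lay above all samples without Ngn3 in Rbp4, while samples with at most 31.6 CPM of Sst ran from 43.4 to 479 CPM of Hhex.

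Among 11712 genes with a mean of at least 5 CPM in samples with Ngn3, Rbp4 ranked 12 by r with Sst over the 17 samples and 1 over the 13 samples with high Sst. Hhex ranked 1598 and 533, and Neurog3 3002 and 4742. Ghsr was under the minimum and was not ranked. Over the 17 samples the median r of all ranked genes was -0.01 and the 95th percentile was 0.66, and 1604 genes were above 0.5.

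The 8 genes most like Sst over the 17 samples were Iapp (r = 0.95), the gene of amylin, Th (0.93), which encodes the rate-limiting enzyme of catecholamine synthesis, Smim5 (0.90), Dio1 (0.89), a deiodinase that activates thyroid hormone, Snph (0.89), Pde3a (0.89), a phosphodiesterase that degrades cyclic AMP, Cbarp (0.88), a regulator of calcium channels, and Zcchc18 (0.88). Iapp was at 0.151 to 1650 CPM (median 391) and Th at 0 to 520 CPM (median 65.9) in these samples. Over the 13 samples with high Sst, Iapp ranked 5 (r = 0.82) and the 7 others ranked 209 to 1674. Their r there was 0.34 to 0.63, where the 95th percentile of all ranked genes was 0.53. These 13 samples span less of the range of Sst, which can itself lower r. The part of the gap between the 2 ranges in the likeness was therefore not tested.

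**Figure D4:**
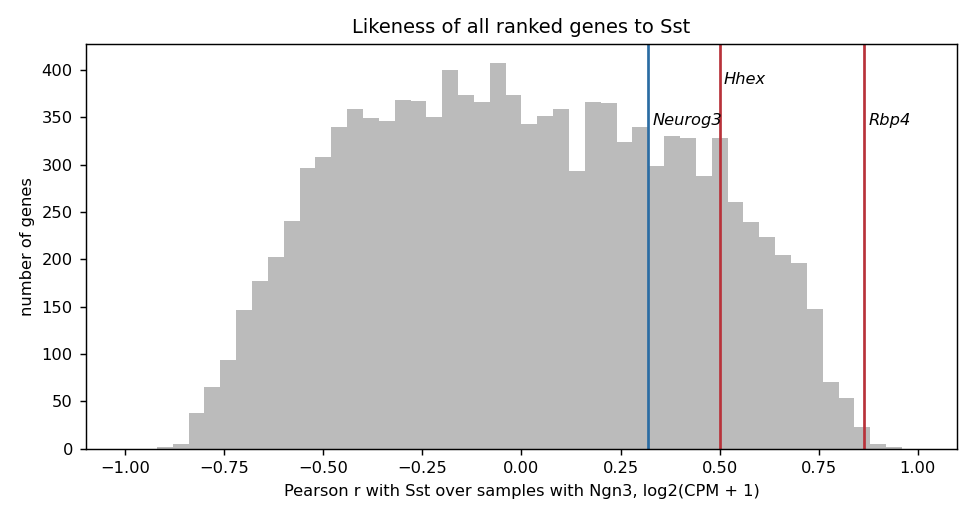
Number of genes by their Pearson r with Sst over the 17 samples with Ngn3, on log2(CPM + 1), for 11712 ranked genes. Lines mark Rbp4 (0.86, rank 12), Hhex (0.50, rank 1598) and Neurog3 (0.32, rank 3002).

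By the median over samples, pools of 50 cells from one sample differed more in Sst than in Rbp4 or Hhex. The exceptions were 6SA Ngn3-Pdx1 replicates 1 and 2, with ratios of highest to lowest pool of 1.79 and 2.45 for Rbp4 against 1.45 and 1.28 for Sst. Over 8 samples with Ngn3 that had more than 1 pool, the highest pool was 1.28 to 70.3 times the lowest for Sst (median 4.77), 1.12 to 6.48 times for Rbp4 (median 1.80) and 1.03 to 3.71 times for Hhex (median 2.03). In 6SA Ngn3-MafA replicate 1, the 3 pools had 978, 13.9 and 782 CPM of Sst (by plain library totals). In 6SA Ngn3-Pdx1-MafA replicate 1 they had 1851, 8182 and 82827 CPM of Sst and 271, 494 and 382 CPM of Rbp4. The pool with the most Sst thus did not have the most Rbp4. In WT Ngn3-Pdx1-MafA replicate 1, the pools had 86229, 47437 and 8593 CPM of Sst and 383, 2486 and 421 CPM of Rbp4, and again different pools led. The same pool led in both genes in 6SA Ngn3-MafA replicate 2, 6SA Ngn3-Pdx1 replicate 2 and WT Ngn3-MafA replicate 1. In the rest of these samples different pools led. Over all 29 single pools with Ngn3, r with Sst was 0.83 for Rbp4 and 0.35 for Hhex.

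**Figure D5:**
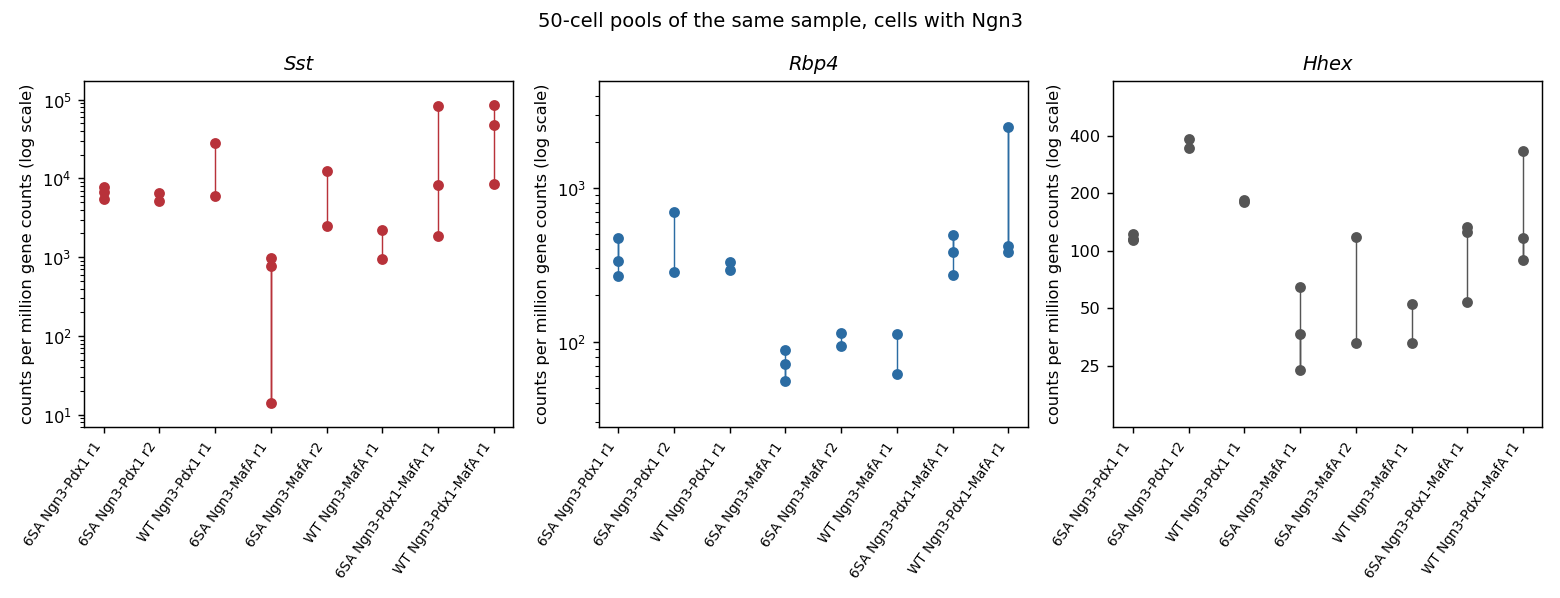
CPM of Sst, Rbp4 and Hhex (log scale, plain library totals) in each 50-cell pool of the 8 samples with Ngn3 that had more than 1 pool, with a line joining pools of a sample. Pools of one sample differed by up to 70.3 times in Sst, 6.48 times in Rbp4 and 3.71 times in Hhex.

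Other genes known from delta cells gave a mixed picture in the mean comparison of Ngn3 with no Ngn3. Of 16 listed, 14 were tested, 4 were higher and 1 lower. Of all genes, 11.1% were higher and 10.5% lower, and these shares apply to each list below in this comparison. The median log2 fold change was 2.27 against 0.07 for all genes. For 3 of the 14, at 0 counts in whole conditions, the fitted fold had no usable error. The median log2 ratio of mean levels, with a floor of 3 counts over each group, was 1.99. Among those higher were Isl1 (10.54, edgeR adjusted p = 2.27e-11), a LIM homeodomain factor of islet cells that acts on the Sst promoter, Casr (8.04), the calcium-sensing receptor, and Spock3 (2.46). F5, coagulation factor V, fell by 2.07 on the log2 scale. Lepr, the leptin receptor, differed by 2.48 (edgeR adjusted p = 0.0558) and Ffar4, a fatty acid receptor of delta cells, by 0.69 (adjusted p = 0.145), and neither passed. Between Ngn3-Pdx1 and Ngn3-MafA the median of this list was 1.35 against 0.05 for all genes, with 0 of 14 called by edgeR or DESeq2 and 4 higher at an unadjusted p under 0.05.

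Regulators of Sst and of islet cell fate moved in larger number. Of 19 tested, 13 were higher and 1 was lower, with a median of 6.92, or 6.64 as a ratio of mean levels. Rfx6, a winged-helix factor of endocrine progenitors, was at 24.95 to 479 CPM with Ngn3 and at most 0.289 CPM without (10.92, edgeR adjusted p = 4.53e-12). Neurod1, a target of Ngn3, was at 20.0 to 240 CPM against at most 0.349 CPM (10.33, edgeR adjusted p = 4.77e-13). Isl1, which is also in the list of delta-cell genes, rose by 10.54 and Myt1 by 9.13. Pdx1 itself rose by 0.95 (edgeR adjusted p = 0.0296) and Neurog3 by 8.63 (adjusted p = 4.56e-11). Both count among the 13, although their counts include vector transcripts. The sort on the colour of the Ngn3 vector fixed the call of Neurog3 beforehand. Creb1, whose product binds the CRE, differed by 0.05 (edgeR adjusted p = 1). Between Ngn3-Pdx1 and Ngn3-MafA, 1 of the 19 passed, Mafa, whose vector was not selected in Ngn3-Pdx1 cells, at -6.93 on the log2 scale (edgeR adjusted p = 0.0386).

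Genes that process and store peptide hormones were nearly all higher with Ngn3. Of 12 tested, 10 were higher and 1 lower, with a median of 9.32. Scg2 (11.02), Chgb (10.15), Pcsk1n (10.55) and Pcsk2 (10.04), which encode granins, a convertase inhibitor and prohormone convertase PC2, led the list. Chgb was at 85.6 to 7226 CPM with Ngn3 and at 0.120 to 3.12 CPM without, and the convertase gene Pcsk6 fell by 1.76 on the log2 scale. Between Ngn3-Pdx1 and Ngn3-MafA the median was -0.01, with 0 of the 12 called by edgeR or by DESeq2 and 1 at an unadjusted p under 0.05.

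Receptors of somatostatin also rose with Ngn3. Of 4 genes tested from a list of 5 receptors and cortistatin (Cort), Sstr3 (7.07, edgeR adjusted p = 0.000251), Sstr1 (5.45, adjusted p = 0.000316) and Sstr2 (1.75, adjusted p = 0.00116) were higher, as with DESeq2, and none was lower by either tool or at an unadjusted p under 0.05. Sstr2, the most abundant, was at 4.76 to 109 CPM (median 16.3) with Ngn3 and at 0.925 to 17.7 CPM (median 7.0) without, so the groups overlapped. Sstr5 had 0 counts in every sample, Sstr4 had 3 counts in all and Cort had 13.

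In the ghrelin pathway around Ghsr, the ligand side was present and the receptor was near 0. Of 9 tested genes, 3 were higher and 1 lower (11.1% and 10.5% of all genes), with a median of 0.42. Ghrl rose by 10.24 (edgeR adjusted p = 7.66e-11) and Mboat4, the enzyme that acylates ghrelin, by 8.63 (adjusted p = 1.21e-07), at 0.339 to 62.1 CPM with Ngn3 against at most 0.180 CPM without. Gnaq, the G protein subunit that couples to the ghrelin receptor, rose by 0.84 and Plcb3 fell by 0.55 on the log2 scale. Mrap2, an accessory protein of the receptor, differed by 1.84 (edgeR adjusted p = 0.218).

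The genes of retinol handling that edgeR called were lower with Ngn3. Of 18 tested, 8 were lower and 0 higher by edgeR (1 by DESeq2, and 1 at an unadjusted p under 0.05), with a median of -0.75 (-0.70 as a ratio of mean levels, since 5 genes had no usable error). Stra6, the cell surface receptor of the Rbp4 protein, fell by 3.86 on the log2 scale (edgeR adjusted p = 6.32e-05), from a median of 33.5 to 1.90 CPM. Aldh1a2, which makes retinoic acid, fell by 3.36 and the retinoic acid receptor gene Rarb fell by 2.78. Ttr, which carries Rbp4 in plasma, differed by 0.91 (edgeR adjusted p = 0.0697), and it was lower in Ngn3-Pdx1 than in Ngn3-MafA cells (-3.10, adjusted p = 0.0182), the opposite direction from the difference of Rbp4 there.

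Foregut and duct transcription factors that are expressed with Hhex were split. Of 15 tested, 2 were higher and 5 lower with Ngn3 (11.1% and 10.5% of all genes), with a median of -0.18. Foxa3 (1.85) and Prox1 (1.47) rose, while Glis3 (-1.72, edgeR adjusted p = 5.54e-07), Tle3 (-1.03) and Hnf4a (-0.91) were among those that fell. Sox9, a marker of duct progenitors, differed by -0.18 (edgeR adjusted p = 0.929). Between Ngn3-Pdx1 and Ngn3-MafA, 0 of the 15 were called by edgeR, 1 by DESeq2, and 3 had an unadjusted p under 0.05.

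Hormones of other islet cells were present in the same samples as Sst. Of 7 tested, 4 were higher with Ngn3 by edgeR and by DESeq2 and none was lower, also at an unadjusted p under 0.05 (Ghrl 10.24, Pyy 8.81, Iapp 7.07 and Ppy 4.59), while Gcg, Ins1 and Ins2, at 0 counts in whole conditions, had no usable error. The summed level of the 7 was 570 to 5485 CPM with Ngn3 and 0.279 to 48.2 CPM without. Their part in the results for Sst was not tested.

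Markers of other cell types that the sort could hold were checked beside the members. Of 9 duct markers, 6 were lower (among them Krt19 at -3.27, Spp1 at -3.26, Car2 at -3.17 and Cftr at -2.82) and 1, Tff2, was higher (1.36), and their summed level was 1933 to 20575 CPM with Ngn3 against 15140 to 64272 CPM without, so duct transcripts remained in every sample. Of 6 hepatocyte markers, 3 were higher with Ngn3 (Apoa1 6.63, Serpina1a 5.27 and Alb 3.39) and 0 lower by edgeR (1 by DESeq2, and 1 at an unadjusted p under 0.05), at a summed 11.6 to 520 CPM against 7.93 to 118 CPM. Between Ngn3-Pdx1 and Ngn3-MafA, where Rbp4 differed by 2.42, the median of the hepatocyte list was -1.84, with Ttr called lower. Since hepatocytes also make Rbp4, these values stand beside its rise, and their part in it was not tested. Acinar markers were near 0, with Amy2a1 and Pnlip at 0 counts, a summed level of at most 9.71 CPM with Ngn3 and 17.1 CPM without, and 1 of 2 tested genes lower (Cela1). Of 4 endothelial and 3 mesenchymal and immune markers, 0 were called by edgeR or DESeq2 and 0 had an unadjusted p under 0.05, at summed levels of 0.302 to 43.2 and 0 to 137 CPM with Ngn3 against at most 7.22 and 18.2 CPM without. Between Ngn3-Pdx1 and Ngn3-MafA, all 3 mesenchymal and immune markers were lower at an unadjusted p under 0.05 (median -5.21) and 4 of 9 duct markers were higher and 1 lower (median 1.07), with 0 called by edgeR in both lists and with 2 duct markers called higher by DESeq2. The part of these cell types in the differences of Rbp4 and Hhex there was not tested.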

How the data were processed

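RNA of 61 pools of 50 sorted cells was sequenced by the study with Smart-seq2 and Nextera XT libraries. Per the labels and the study's methods, the authors aligned reads to mm10 with GSNAP and counted them per Ensembl gene with HTSeq (0.5.3p3), and the deposited values are raw counts, 1 column per library. Strand use in counting is not given in the sources used here, and the read length is stated as 50 bases. Reads in no gene (6.42% to 27.8% of a library's listed reads), ambiguous reads (3.44% to 14.2%) and unaligned reads (12.2% to 45.3%) and 92 spike-ins stayed out of the totals.

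Ensembl identifiers were matched to symbols (45143 of 46078). Libraries with over 1000000 gene counts, under 25% spike-ins and over 10000 detected genes were kept (58, with 3 left out on counts), and pools of a sample were summed. The study reports leaving out 5 samples by these criteria without naming them, so its set of samples may differ. Tested were the 24004 genes detected in at least 5 kept libraries with a variance of CPM over 0.001 (the study does not give the scale of its variance filter). One fit of all 12 conditions with edgeR (4.0.16, R 4.3.3, TMM, trended dispersion, quasi-likelihood F-test) gave fold changes, standard errors and p-values adjusted by Benjamini and Hochberg over all tested genes, with a threshold of 0.05. The study's own tool, DESeq2 (1.42.0 here), was an alternative. The other alternatives were RLE scaling, no gene filter, edgeR's own filter, the replicate number as a block, all libraries, the first pool only and each sample left out. Chosen after seeing the data were edgeR without its legacy setting, passage 2 samples only, 1 sample from 2 of its 3 pools, likeness centred on culture and number, and likeness over the samples with high Sst only. The tests were checked on simulated data.

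Replicate numbers come from the labels. As a check of pairing, deviations from condition means over the 5000 most expressed genes were correlated between samples of the same number. Every pair was over 0.1 for Ngn3-Pdx1 against Pdx1 (0.523 to 0.746), Ngn3-MafA against MafA (0.283 to 0.418), Ngn3-Pdx1-MafA against Ngn3-MafA (0.156 to 0.438) and Ngn3-Pdx1 against Ngn3-MafA (0.14 to 0.651), but not for the other comparisons. Apart from the passage, nothing says that replicates were separate animals, so p-values measure the spread between these samples.

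Named were the 4 members, the 8 genes with the highest r with Sst, up to 4 called genes with the largest change per direction of 13 gene lists, and Neurog3, Pdx1 and Mafa. Some genes that this rule names are not reported here. A few list genes that did not pass are named beside them and were chosen after their values were seen. The members and lists were chosen with earlier results of these data known. Gene positions are from GENCODE vM21 (GRCm38), promoters from RefSeq (all 4 members matched), scanned from 250 bases before to 50 after each start.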

Additional observations from a re-analysis of the deposited data

Results flagged for a closer look

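Signal was also present in libraries that the comparisons of the report did not use, and which entered only the alternative with all libraries. The 3 libraries left out for low totals, all with Ngn3-Pdx1-MafA, had 241563, 408733 and 625650 gene counts. By plain totals, Sst was at 25210 CPM (6090 counts) in 6SA replicate 2 pool 2, at 17110 CPM (6992 counts) in 6SA replicate 3 pool 1 and at 35940 CPM (22484 counts) in WT replicate 2 pool 1, against at most 28.04 CPM in any kept pool without Ngn3. Rbp4 was at 405.7, 300.9 and 209.4 CPM in the same libraries (98 to 131 counts), against at most 70.22 CPM in a kept pool without Ngn3. The library of 6SA replicate 3 is the only one of its condition at passage 5. Single samples were not tested as outliers, since each condition had 2 or 3 samples.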

How the results depend on the processing

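The rises of Sst (8.48 to 10.06 on the log2 scale) and Rbp4 (2.02 to 2.81) with Ngn3 passed under each of 42 alternatives. Hhex passed in that comparison in 1 of them, without a gene filter (-0.73, adjusted p = 0.00148). In Ngn3-Pdx1-MafA against Ngn3-MafA, Sst passed with DESeq2 (4.05), no gene filter (3.98), the replicate block (3.96) and without edgeR's legacy setting (4.004), and Hhex with DESeq2 (1.67), no gene filter (1.59) and the block (1.78). In Ngn3-Pdx1 against Ngn3-MafA, Hhex passed with DESeq2 (2.01), no gene filter (1.95) and the block (1.91), Rbp4 with DESeq2 (2.46), no gene filter (2.42), the block (2.47) and without the legacy setting (2.41), and Sst with no gene filter (2.96). In Ngn3-Pdx1-MafA against Ngn3-Pdx1, Sst passed with no gene filter (1.02). The cause was not tested.

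Leaving out single samples moved Ngn3-Pdx1-MafA against Ngn3-Pdx1 from -0.28 to 1.59 for Sst and from -0.43 to 0.66 for Rbp4, both below 0 without 6SA Ngn3-Pdx1-MafA replicate 1. Against Ngn3-MafA, Sst ran from 2.68 to 7.21 and Rbp4 from 1.99 to 3.08. In Ngn3-Pdx1 against Ngn3-MafA, Sst ran from 2.42 to 6.17 and Rbp4 from 2.16 to 2.715. The 6SA against WT differences had no stable sign. Leaving out single samples gave -0.62 to 2.39 for Sst, -0.11 to 0.25 for Hhex and -0.50 to 0.23 for Rbp4. Sst was at -1.57 with the first pool only, -0.12 with passage 2 samples only and -0.35 with 2 of 3 pools of 6SA Ngn3-Pdx1-MafA replicate 1, Hhex at -0.24 with passage 2 only and Rbp4 at 0.084 with all libraries. The r of Hhex with Sst over samples with Ngn3 was -0.14 as deviations from condition means and 0.78 as deviations from means of the same culture and number.

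Among differences that did not pass, the sign also turned with the replicate block for Rbp4 in 6SA Ngn3-MafA (-0.00047) and Hhex in WT Ngn3-Pdx1-MafA (0.032), with passage 2 only for Hhex there (0.35), for Hhex in Ngn3-Pdx1-MafA over both cultures (0.026) and for Rbp4 in Pdx1 against MafA (0.011), and with the first pool only for Sst in the difference between cultures (-0.68). The pairing did not hold in every pair for the mean comparison, where the block gave 9.51 for Sst, 2.28 for Rbp4 and -0.54 for Hhex (adjusted p = 0.0532). Among comparisons over both cultures, counts of called genes rose by over 1.5 times in Ngn3-Pdx1 against Pdx1 (358) with DESeq2 (911), no gene filter (1273) and the block (1011), in Ngn3-MafA against MafA (1121) with the same settings (1928, 2077 and 2123), and in Ngn3-Pdx1 against Ngn3-MafA (32, then 288, 634 and 216), in Ngn3-Pdx1-MafA against Ngn3-Pdx1 (451, then 1344, 1454 and 1188) and against Ngn3-MafA (654, then 1935, 1930 and 2038). Without the legacy setting they were 684 in the first of these comparisons, 101 in Ngn3-Pdx1 against Ngn3-MafA, 880 in Ngn3-Pdx1-MafA against Ngn3-Pdx1 and 1648 against Ngn3-MafA. With passage 2 samples only they were 696 in the first and 999 in Ngn3-Pdx1-MafA against Ngn3-MafA, and with the first technical repeat only 321 there and 55 in Ngn3-Pdx1 against Ngn3-MafA. The 4 comparisons with 0 called genes had 101 to 239 without a gene filter and 5 to 26 with DESeq2. Ghsr had 10 counts in 158897559 gene counts with Ngn3 and 0 in 149208203 without. It was too low to compare between any groups, and the part of depth in this was not tested.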

Other observations

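Sst reads were present in all 29 kept pools sorted without Ngn3, at 3 to 221 counts. Set against the summed Sst counts of pools with Ngn3 of the same culture, replicate number and repeat number, they came to 0.00631% to 0.465% (median 0.0196%), and 28 of the 29 were at most 0.0883%. The labels do not say whether such pools shared a plate or a run, and whether these reads came from the sorted cells was not tested.

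Hhex and Rbp4 lie 675897 bases apart on chromosome 19. Of 5 tested genes between them, none was higher with Ngn3 and 3 were lower, where 11.1% and 10.5% of all tested genes were. Whether the region as such moved was not tested.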
